A study of Drosophila melanogaster with 15 samples.

Results

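The genes described here encode subunits of the proteasome in the fly head. They were taken by name from the deposited expression table, as the rows whose gene name starts with Prosalpha, Prosbeta or Pros and a number, or with Rpn or Rpt and a number, plus Tbp-1, with the transcript of highest mean level kept for each gene. The rule gave 35 of the 11257 genes listed, from 41 of 18960 transcripts. Of these, 16 belong to the core particle and 19 to the regulatory particle. In 29 genes (13 core, 16 regulatory) the name is that of a subunit found in all cells, here called constitutive, and 6 are copies of such genes: Pros28.1A, Pros28.1B, Prosbeta2R2, Rpt3R, Rpt4R and Rpt6R.

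The proteasome degrades proteins that carry chains of ubiquitin. Its core particle is a barrel of stacked alpha and beta rings, and the proteolytic sites lie inside, in the beta1, beta2 and beta5 subunits. The regulatory particle caps the barrel. Its base holds a ring of Rpt ATPases that unfold the substrate and the scaffold proteins Rpn1 and Rpn2, the receptors Rpn10 and Rpn13 bind ubiquitin, and its lid holds Rpn11, which cuts the ubiquitin chain off. In animal cells the subunit genes are known to be transcribed together, under cap'n'collar type factors (cnc in the fly) when proteasome capacity is short. In the fly, copies of several subunits, among them Pros28.1A and Pros28.1B, are known from the male germ line.

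RNA was measured in heads of adult male flies, aged 7 days after eclosion, that were kept singly for 48 h on agar and sucrose food made with water (vehicle) or with 10 mM amphetamine (AMPH). WT flies were the isogenic w1118 strain. The DAT mutant flies carried dDATfmn, a loss-of-function allele of the dopamine transporter gene, in a w1118 background by their labels. Each polyA+ library came from a single head. Both WT groups and the vehicle group of the DAT mutant held 4 libraries, and the AMPH group of the DAT mutant held 3. The design compares AMPH with vehicle in each strain, the strains with each other, and the AMPH responses of the strains.

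Values are RPKM, reads scaled to transcript length and to the mapped reads of the library. Depth, read from the steps between low values, ranged from 11.1 to 77.7 M reads, and in the shallowest library a constitutive proteasome gene rested on a median of 744 reads and at least 381. The median depth was 11.6 M reads in DAT mutant vehicle (11.1 to 46.9) and 41.9 in DAT mutant AMPH (19.5 to 43.6). In WT it was 53.9 on vehicle and 53.95 on AMPH. Depth thus differed between the mutant groups, which matters most for genes of low level. DAT mutant vehicle replicate 2 stood apart: its best rank correlation with a library of its group was 0.87, against 0.975 or more in every other library, and its median was 9.59 RPKM, against 15.6 to 18.1. The tests below used 13 libraries, leaving out replicate 1 of WT vehicle and replicate 2 of DAT mutant vehicle, and the result over all 15 is given beside a call that it changes. The DAT transcript was listed at 1.23 to 3.30 RPKM in all libraries, with overlap between the strains, so that its level did not check the strain labels. The photoreceptor gene Rh6 was at 81.6 to 97.0 RPKM in the DAT mutant libraries and at 696 to 1038 in WT, except WT vehicle replicate 2 at 155. That library stayed in the 13-library fits, and the reason for its Rh6 value was not tested. The labels name both head and brain as the tissue: photoreceptor genes (8 of 8 listed markers) summed to 18641 RPKM or more in every library, so the RNA included that of the eyes. In such bulk samples fewer cells of a type and less RNA per cell cannot be told apart.

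The constitutive subunits were expressed in every library and fell into levels by particle. The mean level over the 13 libraries had a median of 70.6 RPKM over the 13 core genes, from 40.7 for Pros28.1 (alpha4) to 99.0 for Prosbeta2, and of 40.9 RPKM over the 16 regulatory genes, from 32.9 for Rpn12, a lid subunit, to 71.9 for Rpt1, an ATPase of the base. Over all genes listed the median was 12.2 RPKM. The core median was above the regulatory median in all 15 libraries, by a ratio of 1.49 to 1.86 in 14 of them and of 2.63 in DAT mutant vehicle replicate 2. In the latter Rpn2 (3325 bases spliced) was at 9.46 RPKM, against 30.3 to 34.7 in the other libraries of its group, and Rpn11 (1208 bases, among the shorter regulatory transcripts) at 13.5, against 27.2 to 31.3. Across the 28 constitutive genes with an annotated length, that library's deviation from its group ran against transcript length with a rank correlation of -0.74, against -0.59 to 0.52 in the other libraries, as a description of genes that share a library. The order of the subunits by level was otherwise alike: the rank correlation of the 29 levels lay between 0.802 and 0.981 over the 91 pairs of the other 14 libraries.

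**Figure D1:**
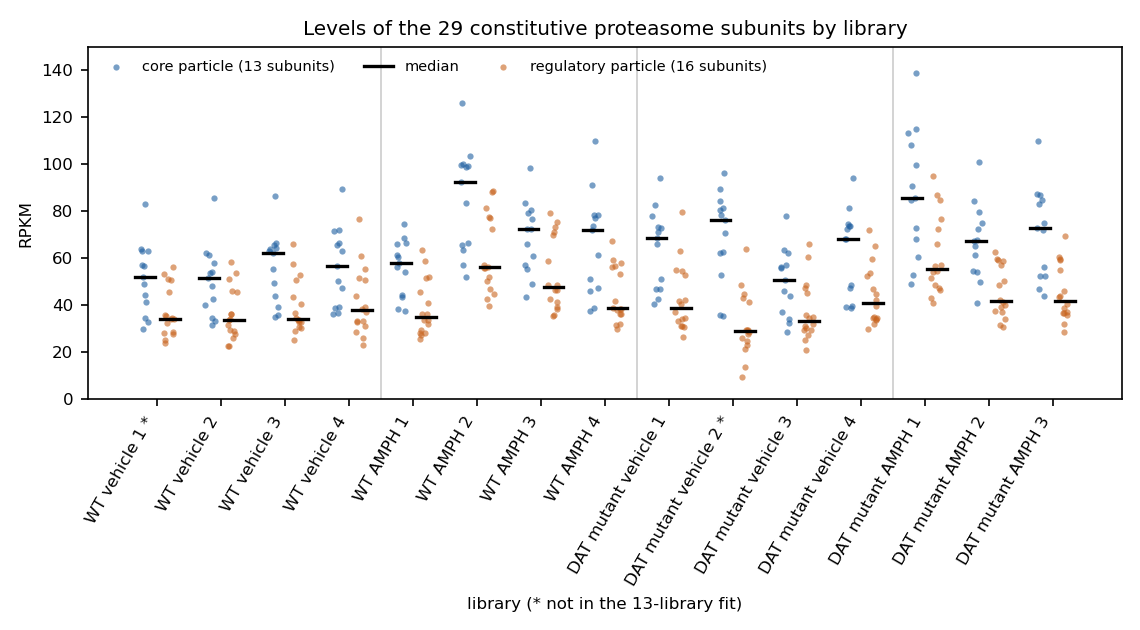
RPKM of the 13 core (blue) and 16 regulatory (orange) constitutive subunits in each of the 15 libraries, with a black bar at each median; a star marks the libraries outside the 13-library fit. The core median is above the regulatory one in every library, and the subunits move up and down together, with WT AMPH replicate 2 (core median 92.6) and DAT mutant AMPH replicate 1 (85.9) highest.

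On AMPH, WT heads had somewhat more proteasome transcript than on vehicle, and the genes moved together. The core median was 51.6, 62.4 and 56.5 RPKM in WT vehicle replicates 2 to 4 and 58.0, 92.6, 72.4 and 72.0 in WT AMPH replicates 1 to 4, and the regulatory median 33.8, 34.3 and 37.8 against 34.9, 56.2, 47.6 and 38.6. All 29 constitutive genes had a positive log2 change, with a median of 0.31 on the log2(RPKM + 1) scale used for every change given here, while the median over all 17584 transcripts tested was -0.07 and 40.2% of them were above 0. At an adjusted p of 0.1 (limma, Benjamini-Hochberg over all transcripts), 6 of the 32 proteasome genes tested rose (7.20% of all transcripts did) and 1 fell (14.8% of all). In 9 of the 32 every AMPH library was above every vehicle library, as in 9.68% of all transcripts.

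The genes that rose in WT came from both particles. Tbp-1 (arm 3R, 19578600 to 19580345), the gene of the ATPase Rpt5, was at 22.5, 25.4 and 23.0 RPKM on vehicle and at 25.7, 44.8, 39.3 and 38.2 on AMPH. The groups did not overlap, but replicate 1 of the AMPH group lay just above the highest vehicle library. Its log2 change was 0.60 ± 0.18 (SE), a 1.52-fold difference, with an adjusted p of 0.055. Rpn6 (2R, 10637656 to 10640415), a lid subunit, was at 36.2, 40.4 and 38.5 RPKM on vehicle and at 40.9, 72.6, 73.3 and 56.5 on AMPH, again without overlap (log2 change 0.61 ± 0.20, adjusted p = 0.073). Prosbeta3 (3R, 4831035 to 4831948), a beta ring subunit without a proteolytic site, was at 33.1, 34.9 and 36.3 RPKM against 37.4, 65.8, 60.8 and 45.9 (0.55 ± 0.19, adjusted p = 0.088). Rpn5 (3R, 1615211 to 1617291), also of the lid, was at 31.4, 30.8 and 33.2 RPKM against 33.8, 56.0, 48.6 and 41.7 (0.46 ± 0.16, adjusted p = 0.092). In all 4 genes replicate 1 of the AMPH group was the lowest AMPH library and close to the vehicle range. Pros54 and Pros29 (alpha3) rose by 0.44 and 0.40 on the log2 scale, with adjusted p of 0.083 and 0.085.

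That library was low across the particle. WT AMPH replicate 1 was the lowest of its group in 26 of the 29 constitutive genes and above every vehicle library in 10, whereas replicate 2 was above every vehicle library in 29, replicate 3 in 28 and replicate 4 in 18. The replicates thus differed along the same direction as the groups, and the 29 changes are not 29 separate measurements. No such counts of single libraries over all transcripts are given here. Whether these positions are particular to proteasome genes was not tested. Without replicate 1 of the AMPH group, 14 genes rose (1714 of all 17481 transcripts did) and the median change was 0.39. Without WT AMPH replicate 2, without WT AMPH replicate 3, or without any of WT vehicle replicates 2, 3 and 4, none passed the threshold upwards, with 3 to 9 constitutive genes at an unadjusted p under 0.05 and a median change of 0.21 to 0.34, and without WT AMPH replicate 4 there were 3. Of all transcripts, 662 to 930 of 17506 to 17755 rose in the fits with none, and 994 of 17460 without WT AMPH replicate 4. In the fits with none, 4188 to 4592 of all transcripts had an unadjusted p under 0.05 in either direction. Over all 15 libraries 13 genes rose (10.1% of all transcripts). In a table of 1 transcript per gene 2 of the proteasome genes did, as did 693 of all 10032 tested there.

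The DAT mutant gave a change of the same size. The core median was 68.5, 51.0 and 68.4 RPKM in DAT mutant vehicle replicates 1, 3 and 4 and 85.9, 67.6 and 72.8 in DAT mutant AMPH replicates 1 to 3, and the regulatory median 38.8, 33.2 and 40.9 against 55.6, 41.7 and 41.9. Of the 29 constitutive genes 28 had a positive log2 change, Rpn7 of the lid being the exception with -0.11 (adjusted p = 0.65), and the median was 0.32, against -0.08 over all 17483 transcripts tested, of which 37.6% were above 0. Of the 32 proteasome genes tested 9 rose (6.71% of all transcripts) and 1 fell (15.4% of all). In 14 of the 32 the AMPH libraries lay above every vehicle library, as in 11.3% of all transcripts. DAT mutant AMPH replicate 1 was the highest of its group in all 29, and whether other genes were also highest in that library was not tested.

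The largest increase in the DAT mutant was that of Pros35 (2L, 10221353 to 10222515), the alpha6 gene, which was at 42.9, 32.5 and 38.7 RPKM on vehicle and at 72.7, 54.3 and 52.5 on AMPH. The groups did not overlap and the log2 change was 0.63 ± 0.15 (SE), a 1.55-fold difference with an adjusted p of 0.028. Rpn12 (3L, 16576083 to 16577122), a lid subunit, was at 26.5, 21.1 and 34.5 RPKM against 46.5, 40.3 and 35.8, with AMPH replicate 3 just above the highest vehicle library (0.58 ± 0.18, adjusted p = 0.061). Prosbeta3, which also rose in WT, was at 40.5, 34.0 and 39.2 RPKM against 60.5, 54.5 and 52.6, without overlap (0.55 ± 0.11, adjusted p = 0.012). The others that rose were Rpn11, Prosbeta5, Prosalpha5, Rpn6, Rpn5 and Pros54, by 0.39 to 0.46.

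With a single library left out 4 to 7 genes passed upwards, and adding the library that stood apart ended all of them. Pros35, Rpn11, Prosalpha5 and Prosbeta3 passed the threshold whichever of the 6 libraries was left out, Prosbeta5 in 5 of the 6 fits, Rpn6 and Rpn5 in 3, Rpn12 in 1 and Pros54 in none. The number that rose was 5 without DAT mutant vehicle replicate 1 (1031 of all 17644 transcripts), 4 without replicate 3 (853 of 17668) and 7 without any of the other 4 (725 to 1046 of 17636 to 17678). With DAT mutant vehicle replicate 2 added, none passed in either direction by limma (6 had an unadjusted p under 0.05, the lowest adjusted p was 0.31, and 0.689% of all transcripts rose), while the median change of the 29 genes was 0.37 and that of all transcripts 0.12. In that fit 1454 of all 17555 transcripts had an unadjusted p under 0.05.

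**Figure D2:**
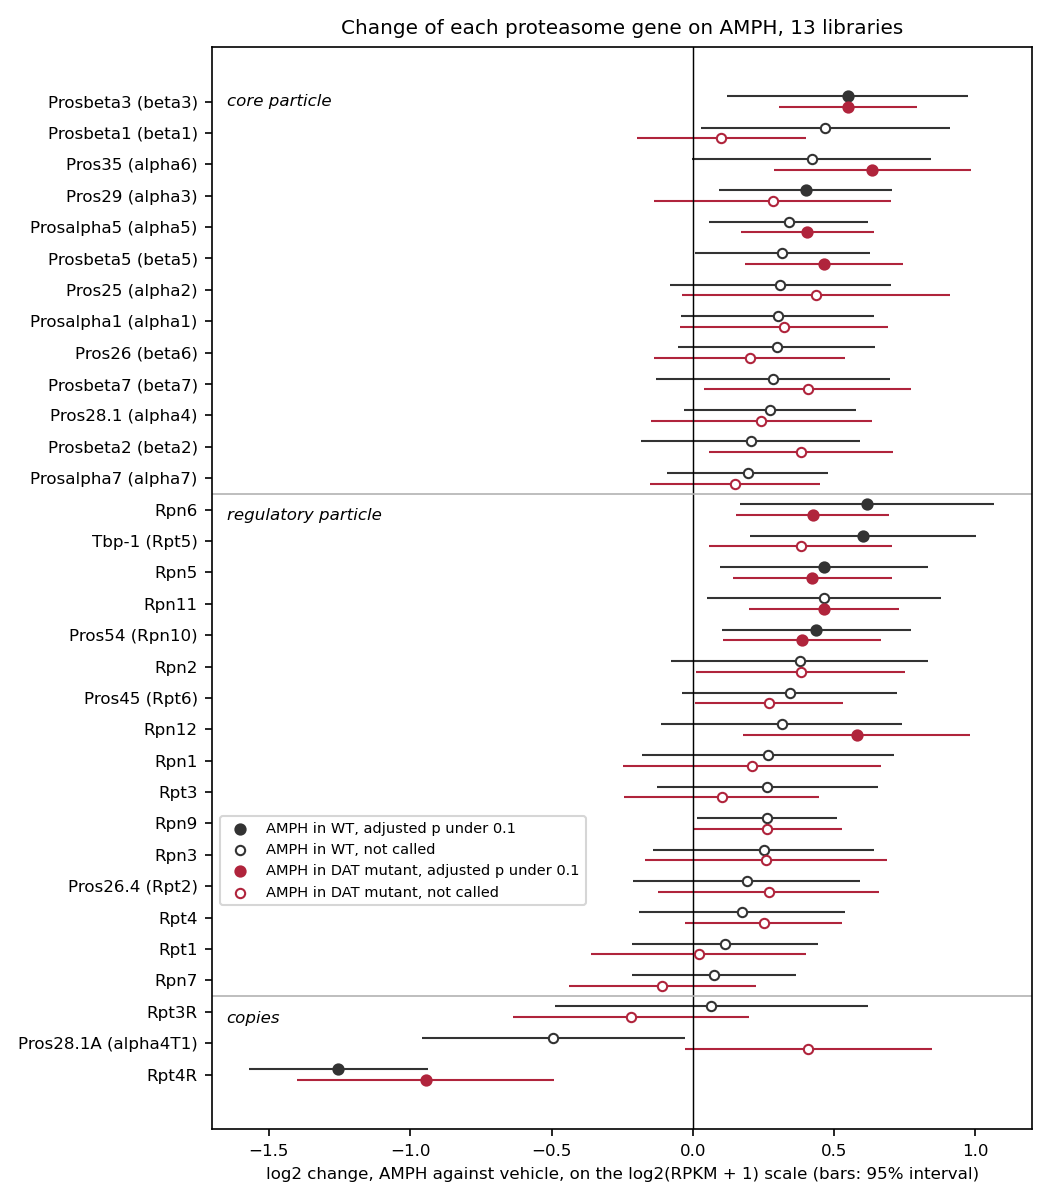
Change of each of the 32 proteasome genes tested on AMPH, as a log2 change on the log2(RPKM + 1) scale with its 95% interval, in WT (dark) and the DAT mutant (red), 13 libraries; filled points passed an adjusted p of 0.1. The constitutive genes lie to the right of 0 in both strains except Rpn7 in the DAT mutant (-0.11), and Rpt4R lies far to the left in both.

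Which of the 3 catalytic subunits passed the threshold depended on the libraries. Over the 13 libraries Prosbeta5 passed in the DAT mutant and none passed in WT. Over all 15, Prosbeta1 and Prosbeta5 passed in WT (log2 changes 0.49 and 0.32, adjusted p = 0.074 and 0.084), and Prosbeta5 did not in mutant heads (0.39, adjusted p = 0.76). Prosbeta5 (2R, 6707469 to 6708685), which carries the chymotrypsin-like site, was at 61.5, 63.8 and 66.4 RPKM in WT on vehicle and at 68.6, 99.5, 80.5 and 73.7 on AMPH, without overlap (log2 change 0.32 ± 0.14, adjusted p = 0.16). In the DAT mutant it was at 66.0, 57.2 and 73.7 RPKM on vehicle and at 99.8, 84.4 and 87.6 on AMPH, also without overlap (0.46 ± 0.12, adjusted p = 0.038). Prosbeta2 (3L, 14993036 to 14994419), of the trypsin-like site, was at 85.8, 86.3 and 89.4 RPKM against 74.5, 126, 98.6 and 110.2 in WT, where AMPH replicate 1 was below the vehicle libraries (0.20 ± 0.17, adjusted p = 0.46). Prosbeta2 in the DAT mutant was at 94.2, 77.9 and 94.4 RPKM against 139, 100.9 and 110.1, with the AMPH libraries all higher (0.38 ± 0.14, adjusted p = 0.11). Prosbeta1 (2R, 11901309 to 11902285), of the caspase-like site, was at 51.6, 62.99 and 50.2 RPKM against 56.5, 103.7, 72.6 and 78.4 in WT (0.47 ± 0.19, adjusted p = 0.14). Heads of the mutant had it at 68.5, 63.3 and 81.3 RPKM against 85.9, 67.6 and 75.1, and the groups overlapped (0.10 ± 0.13, adjusted p = 0.65). CG8389 overlaps Prosbeta1 on the other strand at a mean of 22.0 RPKM and rose in both strains, by 1.03 and 2.26 in WT and mutant heads (adjusted p = 0.021 and 3.2e-05), and whether the authors' counting used strand was not stated, so that reads of the pair may be shared. The same holds for other neighbours on the opposite strand that rose: CG11980 at Prosbeta3, by 0.36 in the DAT mutant (adjusted p = 0.060, mean 17.9 RPKM against 44.3 for Prosbeta3), CG10365 at Rpn9, by 1.09 in WT (adjusted p = 0.0046), and CG1801 at Pros45, by 0.44 in WT (adjusted p = 0.090).

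The genes that handle ubiquitin on the regulatory particle gave similar values in both strains. Rpn11 (2L, 5058404 to 5059816), the deubiquitinase of the lid, was at 26.1, 29.1 and 31.0 RPKM in WT on vehicle and at 29.5, 50.4, 46.7 and 36.2 on AMPH, where replicate 1 fell inside the vehicle range (0.46 ± 0.18, adjusted p = 0.13). Mutant heads had Rpn11 at 31.3, 27.2 and 29.9 RPKM against 47.3, 37.5 and 38.9, without overlap (0.46 ± 0.12, adjusted p = 0.032). The receptor Rpn10, gene Pros54 (3L, 21530100 to 21531683), was at 46.0, 50.6 and 51.7 RPKM against 58.7, 77.7, 79.2 and 56.3 in WT and at 54.4, 45.3 and 52.4 against 76.6, 62.9 and 60.7 in the DAT mutant. Its groups did not overlap in either strain, and it rose by 0.44 ± 0.15 and 0.39 ± 0.12 (adjusted p = 0.083 and 0.070). The receptor Rpn13, listed as CG13349 and outside the name rule, was at 48.2, 56.4 and 54.1 RPKM against 64.6, 90.1, 82.1 and 51.7 in WT (0.41 ± 0.19, adjusted p = 0.18) and at 64.1, 54.3 and 64.3 against 89.3, 73.0 and 71.1 in the DAT mutant (0.34 ± 0.12, adjusted p = 0.10), where the groups were apart but the threshold was missed. Over all 15 libraries Rpn11 passed in WT (0.47, adjusted p = 0.065), while in mutant heads neither Rpn11 (0.73, adjusted p = 0.58) nor Pros54 (0.43, adjusted p = 0.63) did.

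**Figure D3:**
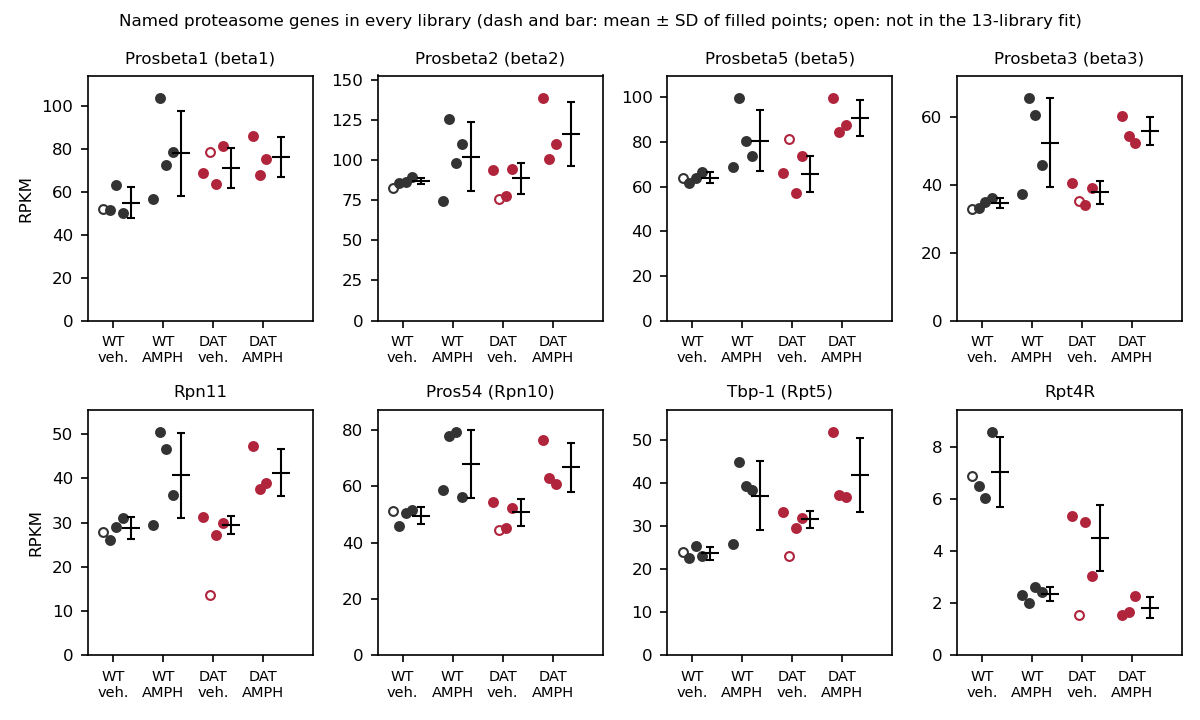
RPKM of 8 proteasome genes in every library, by strain and treatment, with the mean and SD of the filled points beside them; open points are the 2 libraries outside the 13-library fit. In 7 genes the AMPH groups reach higher than the vehicle groups, with WT AMPH replicate 1 (first of its group) near the vehicle level, and Rpt4R is lower on AMPH.

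The calls came from several roles, each of only 6 or 7 genes, beside 7.20% of all transcripts that rose in WT and 6.71% in the DAT mutant. Of 7 lid genes 2 rose in WT and 4 in the DAT mutant, with median log2 changes of 0.31 and 0.42. Of the 6 constitutive ATPases Tbp-1 alone rose in WT, and in the mutant none did (2 had an unadjusted p under 0.05, the lowest limma adjusted p was 0.11), with medians of 0.23 and 0.26. An unadjusted p under 0.05 was found in 5401 of all 17483 transcripts in the mutant, in either direction. In the alpha ring 1 of 7 genes rose in WT, and 2 of 7 did in mutant flies (medians 0.31 and 0.32), and in the beta ring 1 and 2 of 6 (0.31 and 0.40). Over all 15 libraries, 4 of 7 lid, 1 of 6 ATPase, 4 of 7 alpha ring and 3 of 6 beta ring genes rose in WT (10.1% of all transcripts), and no gene of these roles did in mutant heads (0.689% of all). No test compared the roles with each other. The scaffold genes Rpn1 and Rpn2 changed by 0.27 and 0.38 in WT and by 0.21 and 0.38 in the DAT mutant, without passing the threshold.

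The strains shared no libraries, and 28 of the 32 genes tested were higher on AMPH in both, as were 28.2% of the 17285 transcripts tested in both. Prosbeta3, Pros54, Rpn5 and Rpn6 passed the threshold upwards in both strains (4 of 32, against 3.70% of all transcripts). The difference of the responses, WT minus DAT mutant, passed the threshold in no proteasome gene by limma, with 1 at an unadjusted p under 0.05 (933 of all 17915 transcripts were), and in 0.145% of all transcripts. The median difference over the 29 constitutive genes was 0.00. The gene of lowest p was Pros28.1A, a copy of the alpha4 gene, with -0.90 (95% interval -1.52 to -0.29, unadjusted p = 0.0076, adjusted p = 0.62). It was at 1.18, 1.43 and 2.15 RPKM in WT on vehicle and 1.19, 1.00, 0.739 and 0.422 on AMPH, and at 1.17, 0.660 and 0.476 against 1.64, 1.08 and 1.26 in the DAT mutant, on about 5 reads in the shallowest library. Its mean was lower on AMPH in WT and higher on AMPH in the DAT mutant, and the groups overlapped in both strains. Prosbeta1 came next with 0.37 (-0.18 to 0.92) and Rpt4R with -0.31 (-0.85 to 0.23), both with intervals that include 0.

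Between the strains, Tbp-1 alone passed the threshold. On vehicle it was at 33.3, 29.4 and 31.9 RPKM in the DAT mutant and at 22.5, 25.4 and 23.0 in WT, without overlap. The log2 difference was 0.40 ± 0.09 (SE), 1.32-fold, with an adjusted p of 0.051, where 8.45% of all transcripts passed in either direction. The call was lost without WT vehicle replicate 2 or 4 or without DAT mutant vehicle replicate 1 or 4 (adjusted p 0.11 to 0.17 for the lowest gene), and over all 15 libraries, where DAT mutant vehicle replicate 2 was at 22.9 RPKM, the difference was 0.29 (adjusted p = 0.56). With WT vehicle replicate 1 added alone, 3 genes passed, where 794 of 17570 transcripts were higher and 1166 lower. The median over the 29 genes was 0.08. On AMPH none passed, by limma and also at an unadjusted p under 0.05, where 5.54% of all transcripts passed the adjusted threshold, and the median was again 0.08. Of all 17574 transcripts, 3066 had an unadjusted p under 0.05 there.

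The copies were low. Pros28.1B, Prosbeta2R2 and Rpt6R did not pass the filter of 1 RPKM and were not tested. Rpt6R was at 0.117 to 0.263 RPKM in WT on vehicle, 0.170 to 0.651 in WT on AMPH, 0.192 to 0.309 in the DAT mutant on vehicle and 0.587 to 0.957 in the DAT mutant on AMPH, on about 4 reads in the shallowest library. Its groups were apart in the DAT mutant and overlapped in WT. Rpt3R overlapped between vehicle and AMPH in both strains, at 0.865 to 3.96 RPKM over the 13 libraries, and was listed at 0 in DAT mutant vehicle replicate 2. Rpt4R (3L, 11935123 to 11936589), a copy of the ATPase gene Rpt4, was at 6.50, 6.02 and 8.55 RPKM in WT on vehicle and at 2.31, 2.00, 2.62 and 2.44 on AMPH, and fell by 1.25 ± 0.14 on the log2 scale (adjusted p = 0.0016). In the DAT mutant it was at 5.34, 5.11 and 3.03 RPKM on vehicle and at 1.52, 1.65 and 2.27 on AMPH, and fell by 0.95 ± 0.20 (adjusted p = 0.016). The groups were apart in both strains, and WT AMPH replicate 1 was as low as the others. The call held in all 7 fits that left out a WT library and all 6 that left out a DAT mutant library. In DAT mutant vehicle replicate 2 Rpt4R was at 1.55 RPKM, and over all 15 libraries its change in that strain was -0.68 (adjusted p = 0.75), against -1.25 in WT (adjusted p = 0.00035). Rpt4 itself was at 36.1 to 43.8 RPKM in WT on vehicle and 36.3 to 56.0 on AMPH, with a log2 change of 0.17 (adjusted p = 0.51), so that the copy and its parent gene differed in direction. Only 4 of the 17 testis markers listed were in the table, with a sum of 4.33 to 6.60 RPKM in WT vehicle and 3.32 to 8.35 in WT AMPH. In the DAT mutant without vehicle replicate 2 the sum was 4.62 to 5.32 RPKM on vehicle and 6.88 to 10.1 on AMPH, without overlap, and its part in the values of the copies was not tested. Of the markers found, bam alone was apart there, at 0.671 to 1.26 RPKM on vehicle and 2.90 to 5.76 on AMPH. The markers twe, can and janB overlapped.

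Genes around the proteasome were read from a list of 26, and all that passed rose: 11 in WT (7.20% of all transcripts) and 10 in the DAT mutant (6.71% of all) over 13 libraries, with medians of 0.34 and 0.29 over the list. Over all 15 libraries 15 rose in WT (10.1% of all transcripts), and in the mutant none did (5 at an unadjusted p under 0.05, with 0.689% of all transcripts higher), so that each AMPH call given below for that strain was lost. In that fit of the mutant, 1454 of all 17555 transcripts had an unadjusted p under 0.05. Of the constitutive subunits outside the name rule, CG17331 (beta4) rose in both strains, by 0.58 (adjusted p = 0.056) and 0.67 (adjusted p = 0.028), and Mov34 (Rpn8) and CG13779 (Sem1) passed in the DAT mutant, with 0.52 and 0.38 (adjusted p = 0.033 and 0.063), against 0.41 and 0.33 in WT (adjusted p = 0.13 and 0.20). Over all 15 libraries both passed in WT (adjusted p = 0.068 and 0.086) and neither in mutant heads (0.41 and 0.97). With these and CG13349, all 14 positions of the core and 19 subunits of the cap were measured. Both deubiquitinases that dock on the cap rose in both strains: CG5384 (Usp14) by 0.62 and 0.39 and Uch-L3 (Uch-L5) by 0.47 and 0.35. Neither Pomp, the chaperone of core assembly, nor CG8979 (PI31) or the activator gene REG passed, with -0.09, -0.01 and 0.20 in WT. Of 4 ubiquitin genes 1 rose in WT and 0 in the DAT mutant, with median changes of 0.19 and 0.23. In WT RpL40, a ubiquitin-ribosomal fusion gene, was apart, at 815.9 to 965.0 RPKM on vehicle and 1118 to 1389 on AMPH. The other ubiquitin genes overlapped there, among them the polyubiquitin gene Ubi-p5E, at 413 to 483 RPKM against 285 to 436. Of 4 genes for the ubiquitin-activating enzyme and for receptors that carry ubiquitinated proteins to the proteasome, 1 rose in each strain, with medians of 0.20 and -0.04.

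Of the genes of the cnc pathway, Keap1, the inhibitor of cnc, gave the lowest adjusted p on the list. It was at 6.84, 7.79 and 6.37 RPKM in WT on vehicle and at 13.6, 16.2, 13.7 and 13.2 on AMPH, and at 8.55, 8.78 and 10.1 against 16.5, 19.0 and 17.8 in the DAT mutant. The groups were far apart in both strains, WT AMPH replicate 1 included, and the changes were 0.92 ± 0.11 and 0.89 ± 0.10 (adjusted p = 0.0020 and 0.0016). Over all 15 libraries they were 0.95 (adjusted p = 0.00046) and 1.12 (adjusted p = 0.16). The gene maf-S, the small Maf partner of cnc, rose by 0.49 and 0.37, and PNGase, the fly N-glycanase, whose counterpart in the worm processes the cnc homologue, by 0.36 and 0.42. The ubiquitin ligase gene sip3, listed with them, did not pass in either strain. It was at 17.5, 22.1 and 23.8 RPKM in WT on vehicle and at 16.8, 20.1, 15.8 and 19.8 on AMPH. In the DAT mutant it was at 25.1, 21.4 and 24.1 against 22.5, 18.9 and 19.0, and the groups overlapped in both strains. For cnc the transcript of highest mean level was kept (3R, 19011300 to 19014851), and no other transcript of the gene was read. This cnc transcript was at 51.4, 52.5 and 45.3 RPKM in WT on vehicle and at 60.8, 87.4, 75.3 and 72.2 on AMPH (0.56 ± 0.13, adjusted p = 0.029), while in the DAT mutant it was at 46.9, 47.1 and 53.0 against 51.6, 51.4 and 49.7 (0.06 ± 0.09, adjusted p = 0.73). DAT mutant vehicle replicate 2 was at 19.2 RPKM for cnc, and with it the change in that strain was 0.38 ± 0.35 (adjusted p = 0.93). On AMPH cnc was lower in the mutant by -0.52 (adjusted p = 0.080), the only gene of the list called lower between the strains. The test of the difference itself did not pass for cnc or any other gene of the list (2 had an unadjusted p under 0.05). Of all 17915 transcripts, 933 had such an unadjusted p. TER94, the segregase that hands substrates to the proteasome, changed by 0.34 and 0.28 without passing, and its cofactor CG4673 (Npl4) rose by 0.52 and 0.60. Of the 4 genes of TER94 and its cofactors, 2 rose in WT (7.20% of all transcripts) and 1 in the DAT mutant (6.71%). Over all 15 libraries 3 rose in WT (10.1%). The cofactor Ufd1-like was at 28.7 to 31.1 RPKM in WT on vehicle, without replicate 1, and at 32.9 to 38.5 on AMPH. Between the strains, CG4673 was higher in DAT mutant heads on vehicle (0.50, adjusted p = 0.083, and 0.31 with adjusted p = 0.56 over all 15 libraries) and on AMPH (0.58, adjusted p = 0.034).

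The summed levels of other cell type markers moved with treatment as well. Muscle markers (3 of 4 found) summed to 381 to 538 RPKM in the WT vehicle libraries and 215 to 239 in WT AMPH, and glial markers (4 of 5) to 583 to 735 against 465 to 533. Of these, Mhc, Act88F and Gs2 were apart between vehicle and AMPH, and up, Eaat1, repo and moody overlapped. Fat body markers (3 of 4) summed to 89.3 to 179.8 RPKM in WT vehicle replicates 2 to 4 and 38.9 to 85.5 in WT AMPH, and WT vehicle replicate 1, at 29.5, was below all of them. Without that library Rfabg alone was apart in WT, and Lsp2 and ppl overlapped. In the DAT mutant without vehicle replicate 2, the fat body sum was 181 to 222 RPKM on vehicle and 57.8 to 80.9 on AMPH, with Rfabg and Lsp2 lower but ppl at 30.8 to 48.8 against 34.4 to 55.4. Muscle markers there summed to 261 to 309 RPKM against 180.0 to 225, and glial markers to 475 to 672 against 357 to 384. In these libraries Mhc was apart, at 150.2 to 162.7 RPKM against 64.2 to 83.4, as were Act88F, repo, Eaat1 and Gs2. The muscle gene up overlapped, at 107.9 to 141.0 RPKM against 112.6 to 140.4, and so did the glial gene moody. Neuronal markers (5 of 6) summed to 379 to 439 against 295 to 406 in WT and to 347 to 411 against 266 to 345 in the DAT mutant without vehicle replicate 2, where Syt1 and Cha overlapped. No marker found was at 0 in all libraries, and photoreceptor sums overlapped between vehicle and AMPH in WT. In the DAT mutant, again without vehicle replicate 2, photoreceptor sums were 30166 to 31718 RPKM on vehicle and 25411 to 26968 on AMPH. There ninaE, norpA and inaD were apart, and the other listed photoreceptor genes overlapped. The part of these shifts in the proteasome values was not tested.

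The choice of scaling changed how many genes passed, not the direction of the medians. With each library centred on its own median, 9 of 32 genes rose in WT (10.2% of all transcripts) and 17 in the DAT mutant (11.3% of all), with medians over the 29 constitutive genes of 0.39 and 0.41 against 0.01 in both strains over all transcripts. Over all transcripts, the share of calls that were higher on AMPH went from 32.7% to 50.9% in WT and from 30.4% to 50.6% in the DAT mutant with that centring.

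**Figure D4:**
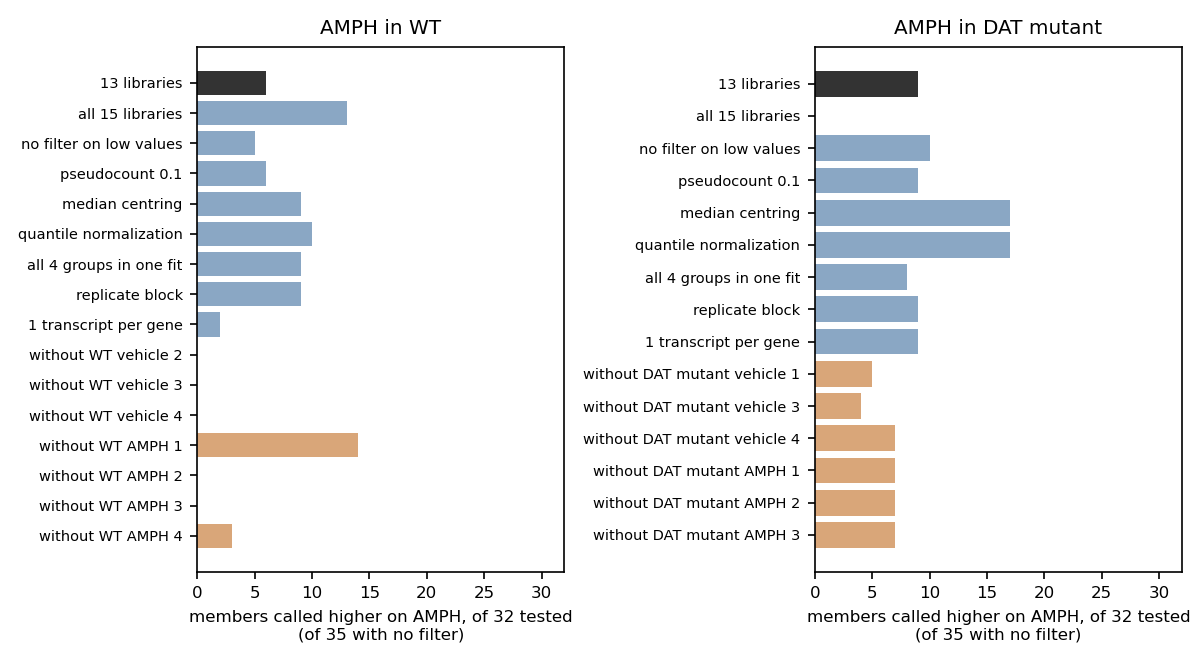
Number of proteasome genes called higher on AMPH (adjusted p under 0.1) in each strain, for the 13-library fit (black), other settings (blue) and the fits that leave out 1 library (orange). In WT the count runs from 0 to 14 and in the DAT mutant from 0 (all 15 libraries) to 17.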

How the data were processed

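The authors sequenced polyA+ libraries of single heads on an Ion Torrent instrument, mapped the reads to dm3 and deposited RPKM values per transcript, whose counting with regard to strand and shared reads was not stated. The per-library files equalled the series table. No counts were given, so limma 3.58.1 was fitted to log2(RPKM + 1) with a mean-variance trend over transcripts that reached 1 RPKM in a number of libraries equal to that of the smaller group, with Benjamini-Hochberg adjustment and a threshold of 0.1. This replaces the count model of the study. Changes of low genes are understated on this scale. The 13 libraries are those that an earlier analysis inferred the group means of the study to rest on, and no reason for leaving out the other 2 was given.

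Members, gene lists and tests were chosen with earlier results of these data known. Genes with values in every library are the catalytic subunits, Rpn11, Rpn10, Rpn13 and up to 5 called members of largest change per comparison, for the difference of responses the 3 of lowest p, and genes of the list of 26. Some values were chosen after they were seen. They are those shown for Keap1, cnc, sip3, RpL40, Ubi-p5E and Ufd1-like and for the markers Rh6, bam, Mhc and up. So were those of the neighbours CG8389, CG11980, CG10365 and CG1801. Of the 35 genes 32 passed the filter. Names follow the deposited table, with current names in parentheses, 14 genes overlap another listed gene, and 6 have more than 1 transcript. PA200 and further copies of subunit genes were not analysed here. Depth was estimated from 722 single-exon transcripts if 1 step is 1 read. Each library is a single fly, so p-values measure the spread between flies. The fit was tested on simulated data, with changes larger than those of the constitutive genes and noise drawn separately for each transcript. That test does not bear on changes of the size given here or on genes that move together. The alternatives were all 15 libraries, no filter, a pseudocount of 0.1, median centring, quantile normalization, all 4 groups in one fit, the replicate block, 1 transcript per gene and leaving out each library.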

Additional observations from a re-analysis of the deposited data

Results flagged for a closer look

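In groups of 4 libraries, a library was noted where its gap to the nearest other was a larger share of the group's range than Dixon's 95% critical value allows. Chance notes about 1 in 20 groups, and 7 of 111 were noted. WT vehicle replicate 4 was the highest of its group for Pros25 (71.6 RPKM), Rpt4 (43.8) and the regulatory median (37.8), and WT vehicle replicate 3 for Prosbeta1 (62.99). WT vehicle replicate 2 was the lowest for Pros29 (53.7), and DAT mutant vehicle replicate 3 for Pros25 (51.0). DAT mutant vehicle replicate 2 was the highest for Prosalpha5 (84.4).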

How the results depend on the processing

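Over the 13 libraries 7 of the 32 proteasome genes tested passed the threshold in either direction in WT on AMPH, 10 in the DAT mutant on AMPH, 1 between the strains on vehicle, and 0 between the strains on AMPH and for the difference of responses. Of all transcripts 7.20% rose and 14.8% fell in WT, and 6.71% rose and 15.4% fell in the DAT mutant. In either direction 8.45% passed between the strains on vehicle, 5.54% on AMPH and 0.145% for the difference of responses. In WT the number was 15 over all 15 libraries, 11 with quantile normalization, 11 with all 4 groups in one fit, 3 with 1 transcript per gene and 1 to 16 when single libraries were left out. Of all transcripts, 1761 rose and 3406 fell of 17464 over all 15 libraries. The numbers were 1764 and 1850 of 17584 with quantile normalization and 1735 and 3300 of 17584 with all 4 groups in one fit. They were 693 and 1083 of 10032 with 1 transcript per gene. With single libraries left out 662 to 1714 rose and 1446 to 2963 fell, of 17460 to 17755. In the DAT mutant it was 0 over all 15 libraries, 18 with median centring, 18 with quantile normalization and 5 to 8 with single libraries left out. Of all transcripts there, 121 rose and 137 fell of 17555 over all 15 libraries. The numbers were 1980 and 1932 of 17483 with median centring and 1888 and 2029 of 17483 with quantile normalization. With single libraries left out 725 to 1046 rose and 1420 to 2995 fell, of 17636 to 17678. Between the strains on vehicle it was 0 over all 15 libraries, 0 with all 4 groups in one fit, 0 to 1 with single libraries left out and 3 with WT vehicle replicate 1 added, a setting chosen after seeing the data. Of all transcripts, 75 were higher in the mutant and 114 lower of 17436 over all 15 libraries. With all 4 groups in one fit 563 and 802 of 17487 were. With single libraries left out 264 to 756 were higher and 306 to 683 lower, of 17630 to 17664. With WT vehicle replicate 1 added the numbers were 794 and 1166 of 17570. The comparison of the strains on AMPH and the difference of responses kept 0 throughout. The cause of these shifts was not tested, beyond the fewer libraries or transcripts of some settings. Of 260 values of 18 named changes under other settings, none turned direction, and 80 lost the threshold.

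With the replicate block the numbers were 10 in WT, 10 in the DAT mutant and 0 between the strains on vehicle. Of all transcripts, 1456 rose and 2224 fell of 17584 in WT, and 754 rose and 1020 fell of 17483 in the DAT mutant. Libraries share only a number: the correlation of same-numbered libraries was -0.12 to 0.14, and 2 of 6 WT libraries correlated best with their own number.

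Depth limits the copies, which rest on 2 to 47 reads in the shallowest library.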
